A study of Mus musculus with 2 samples.

Results

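The genes described here are the 3 lipins and 7 acyltransferases of hepatic triglyceride synthesis. They were chosen by name, as genes of these steps, with earlier results of these data known. Their probes were found through the transcript identifiers on the array. Of 20652 gene names with a probe, these are 10, with 11 probes, and 10 of the 10 were well above background on both arrays. Total liver RNA of male mice was compared between 2 states, fasting and feeding, with 1 array per group and the livers of 3 mice pooled on each array. The fast lasted 16 h according to one label, while the treatment protocol puts it at about 14 to 16 h, and the second group is described both as fed without restriction and as given food after the fast. The labels name no strain, age, allele or agent. The methods describe male C57BL/6J mice and transgenic mice on that background and give a range for their age in weeks. They do not say which were used for the arrays. Because each group is 1 pool, no difference given here has a replicate check, a standard error between mice or a p-value, and the array, the pool and the feeding state cannot be told apart.

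Triglycerides are built in the endoplasmic reticulum by adding fatty acyl chains to glycerol 3-phosphate. A glycerol-3-phosphate acyltransferase such as Gpam adds the first chain, an acylglycerolphosphate acyltransferase (Agpat2, Agpat3) adds the next and yields phosphatidate, a lipin removes the phosphate to give diacylglycerol, and Dgat1 or Dgat2 adds the last chain. Mogat1 and Mogat2 reach diacylglycerol by another route, from monoacylglycerol. Lipins are also found in the nucleus, where lipin 1 acts with PGC-1α and PPARα on genes of fatty acid oxidation, and Lpin1 is the gene mutated in the fatty liver dystrophy mouse.

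Signals are given as the processed intensity of the spot, with the error that the extraction software assigns to that spot. Changes are log2 differences, feeding minus fasting, after quantile normalization of both arrays, so that a negative value means lower upon feeding. The software's errors give a difference an SD of 0.20 to 0.22 on the log2 scale for the probes representing these 10 genes. Some probes are spotted repeatedly, and with the genes divided into 3 equal classes by signal, their spots gave a difference an SD of 0.29 in the dimmest class, 0.14 in the middle class and 0.10 in the brightest. Both sources cover the measurement on the array only. A gene was called when it differed at least 2-fold between the arrays.

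Of the 10 genes 6 were called, 4 of them lower and 2 higher upon feeding, where 7.91% of all 16346 genes tested were called, 4.62% lower and 3.29% higher. Since the 10 were chosen with earlier results of these data known, these shares are no test of the set. Lpin1 and Lpin2 had the largest changes of the set, 25.8-fold and 18.4-fold lower. Gpam and Dgat1 were close to 2-fold lower, Agpat2 was slightly over 2-fold higher and Mogat2 was 3.09-fold higher. Lpin3, Agpat3, Dgat2 and Mogat1 were not called. Under the normexp background correction 2 of the 10 were called, Lpin1 and Lpin2, with Lpin2 4.35-fold lower, and with each array scaled by its median 4 were called, without Gpam and Dgat1. Over all genes, 527 of 16338 were called under the normexp correction and 1366 of 16348 with scaling by the median. Of all calls of the main processing, 41.5% were higher upon feeding. This share was 52.5% with each array scaled by its median and 53.5% without lower bounds for genes that were dim on 1 array. Scaling by the median also moved the median of all genes from 0 to 0.09.

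The promoters of the pair of lipins with large changes are shown because these are the members that moved together. Each sequence covers the 250 bases before a RefSeq transcript start on GRCm38.p6 and is written 5′ to 3′ on the strand of the gene. Capitals mark the letters of the motifs found, on either strand. The array does not tell which of the starts was used.

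Lpin1, chr12:16610967-16611216, minus strand: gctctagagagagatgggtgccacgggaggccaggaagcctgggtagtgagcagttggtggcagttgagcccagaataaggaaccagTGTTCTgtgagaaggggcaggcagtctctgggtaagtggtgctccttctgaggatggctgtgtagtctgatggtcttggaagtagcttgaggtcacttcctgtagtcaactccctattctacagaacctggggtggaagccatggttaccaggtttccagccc
Lpin2, outermost start, chr17:71183282-71183531, plus strand: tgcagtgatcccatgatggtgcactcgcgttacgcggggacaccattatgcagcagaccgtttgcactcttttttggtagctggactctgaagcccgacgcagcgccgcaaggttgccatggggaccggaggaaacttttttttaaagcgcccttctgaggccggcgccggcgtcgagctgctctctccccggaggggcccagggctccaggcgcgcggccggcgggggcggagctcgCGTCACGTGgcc
Lpin2, innermost start, chr17:71204404-71204653, plus strand: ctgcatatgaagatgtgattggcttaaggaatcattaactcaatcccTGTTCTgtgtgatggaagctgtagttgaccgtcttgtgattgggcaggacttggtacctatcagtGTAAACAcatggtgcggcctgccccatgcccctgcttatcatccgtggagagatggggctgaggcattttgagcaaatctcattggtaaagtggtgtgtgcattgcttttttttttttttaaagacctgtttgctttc

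The motifs searched on both strands were the cAMP response element TGACGTCA, its short form TGACG, the E-box CACGTG, the sterol response element TCACNCCAC, one arm of the glucocorticoid element, AGAACA, and the FoxO site GTAAACA. The first of these holds the short form within it. In the Lpin1 sequence, the glucocorticoid arm lay on the opposite strand at bases -163 to -158 from the start, and none of the other letters was found. In Lpin2, the outermost promoter held a short cAMP element at -12 to -8 on the opposite strand that overlapped an E-box at -9 to -4. Its innermost promoter held the glucocorticoid arm at -203 to -198 and the FoxO letters at -138 to -132, and the middle one of the 3 held none of the 6. One of the 2 promoters of Lpin3, which was not called, also held the glucocorticoid arm, at -245 to -240. Of all 32851 promoters in the table, 16.1% held the glucocorticoid arm, 17.8% the short cAMP element, 6.02% the E-box, 3.17% the FoxO letters, 1.55% the full cAMP element and 1.05% the sterol element. Promoters were listed for 7 of the 10 genes, 11 in all, and 5 of the 11 held at least 1 of the 6 motifs. Apart from the lipins, this was the case only for the inner promoter of Gpam, with short cAMP elements at -31 to -27 and at -9 to -5. The share of all promoters with at least 1 of the 6 motifs was not computed, so the 5 of 11 cannot be set beside it. Agpat2, Agpat3 and Mogat1 had none in their listed promoters, and Dgat1, Dgat2 and Mogat2 were not listed.

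Lpin1 encodes lipin 1, and its gene was read by 2 probes for the transcript NM_001130412. The brighter probe had a signal of 6283 ± 628 upon fasting and 227 ± 22.7 upon feeding. After normalization this was a difference of -4.69 on the log2 scale, the 7th largest decrease among the 16346 genes. The dimmer probe had a signal of 174 ± 17.7 upon fasting and 5.64 ± 1.39 upon feeding, where it was not well above background. Taken against the lowest signal well above background on the feeding array, 6.55, the second probe was at least 24.6-fold lower. Both probes were thus far apart between the arrays and in the same direction. The difference of the brighter probe was many times the spread of replicate spots. That spread was taken from probes well above background on both arrays, so it does not cover the dimmer probe. The software's errors gave the difference of the dimmer probe an SD of 0.39. The local background around the dimmer probe was 44.5 upon fasting and 24 upon feeding, against raw signals of 259 and 43.0, and under the normexp background correction its change was -1.30 in place of the bound. The brighter probe changed by -4.05 under that correction.

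Lpin2 encodes lipin 2, another phosphatidate phosphatase present in liver. Its single probe, for NM_001164885, had a signal of 523 ± 52.4 upon fasting and 25.3 ± 2.90 upon feeding. The change was -4.20, the 12th largest decrease among all genes. Although it passed the background flag on each array, the probe was dim upon feeding, with a raw signal of 59.0 against a local background of 20.0. The size of the change depended on how background was treated. Under the normexp correction it was -2.12, or 4.35-fold lower. Lpin1 and Lpin2 differed from each other by -0.49 (Lpin1 minus Lpin2), with an SD of 0.30 from the software's errors, and by -1.93 under the normexp correction. Of the genes tested, 15 (0.0918%) were at least 16-fold lower upon feeding, and Lpin1 and Lpin2 were among them.

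Lpin3, which encodes the remaining member of the family, had a signal of 585 ± 58.5 upon fasting and 532 ± 53.2 upon feeding on its probe for NM_022883. The change was -0.01, within both measures of error, and its sign depended on the scaling, with 0.10 when each array was scaled by its median. The change of Lpin1 minus that of Lpin3 was -4.68, with an SD of 0.29 from the software's errors, and that of Lpin2 minus Lpin3 was -4.19, with an SD of 0.30. These values were -4.05 and -2.12 under the normexp correction. The family as a whole had a median change of -4.20, with 2 of its 3 genes called.

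**Figure D1:**
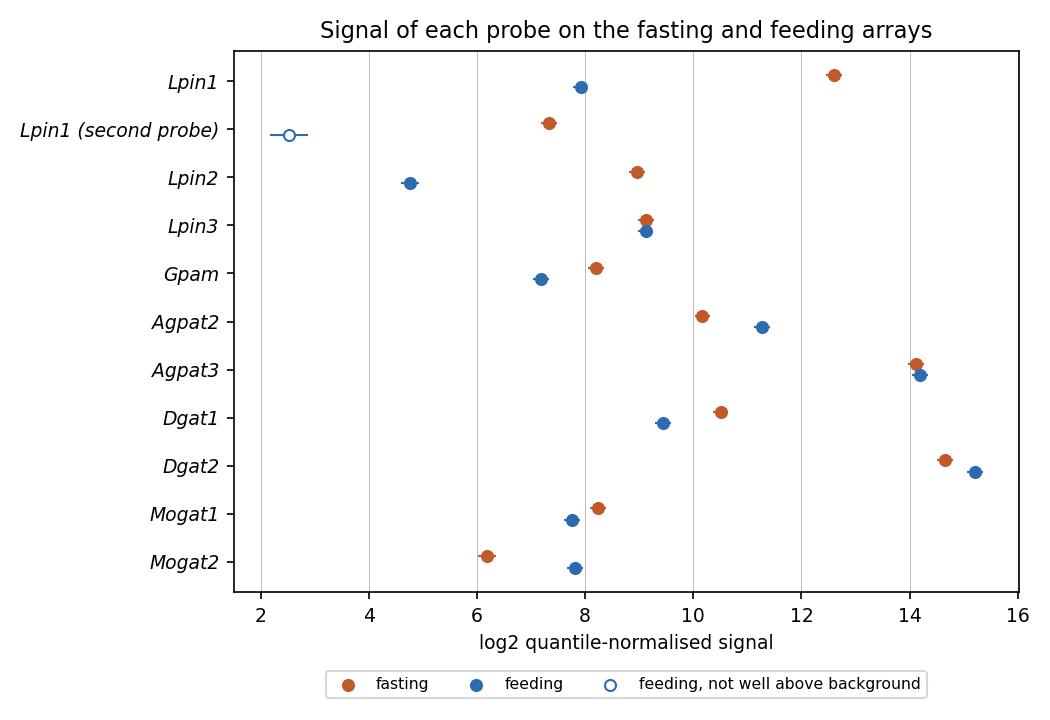
Signal of each probe on both arrays. The x axis is the log2 quantile-normalised signal, points are the fasting and feeding arrays, bars are the error of the extraction software, and the open point was not well above background. Levels of different probes cannot be compared. The points of both Lpin1 probes and of Lpin2 lie more than 4 log2 units apart, whereas those of Lpin3 and Agpat3 overlap within their errors.

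Among all genes ordered by change, the decreases just larger than that of Lpin1 were those of B930025P03Rik (-4.86), Ppp1r3g (-5.02), a glycogen-targeting subunit of protein phosphatase 1, and Olfr1264, an olfactory receptor gene that was not well above background upon feeding (at least 37.3-fold lower). Just after Lpin1 came Pcdh20 (-4.62), a protocadherin, Tlcd3a (-4.59) and Mfsd2a (-4.45), a transporter of lysophosphatidylcholine. These are the 3 neighbours on either side in the order of 1 difference between 2 arrays. Upon feeding, B930025P03Rik, Pcdh20 and Tlcd3a had normalised signals of only 13.7, 9.81 and 42.2. The lowest signal well above background on that array was 6.55. No other likeness among the neighbours was examined.

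**Figure D2:**
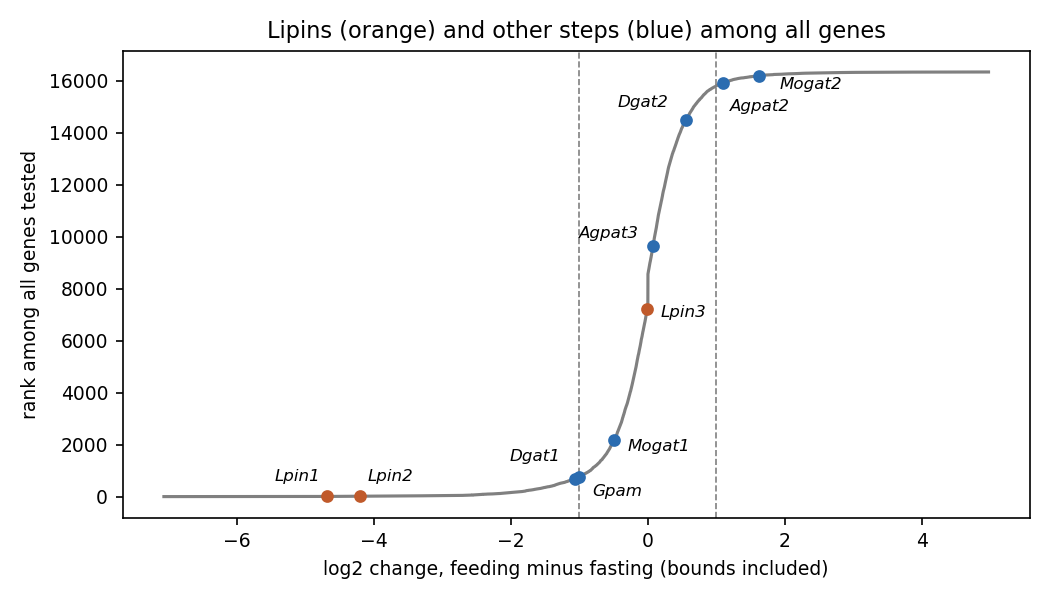
All 16346 genes in order of their change. The x axis is the log2 change, feeding minus fasting, the y axis the rank from the largest decrease, and dashed lines mark 2-fold. Lpin1 (rank 7) and Lpin2 (rank 12) lie at the lower end, Lpin3 (rank 7216) in the middle, and the other steps spread from rank 668 to rank 16203.

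The steps around the lipins moved both ways. The 7 acyltransferases had changes from -1.07 to 1.63 and a median of 0.08, where the median of all genes was 0. Of the 7, 2 were at least 2-fold lower and 2 at least 2-fold higher. The median of the lipins minus that of the acyltransferases was -4.27. The former is the value of Lpin2, so that this contrast was -2.23 under the normexp correction.

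Gpam, the mitochondrial glycerol-3-phosphate acyltransferase, catalyses the first step and is a known target of SREBP-1c. The probe for NM_008149 had a signal of 310.2 ± 31.2 upon fasting and 135 ± 13.6 upon feeding. The change of -1.01 was barely past the threshold, with 4.53% of genes lower still. It was -0.97 with scaling by the median and -0.58 under the normexp correction, neither of which is 2-fold.

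Agpat2, whose human counterpart is mutated in a form of congenital lipodystrophy, had a signal of 1177 ± 118 upon fasting and 2425 ± 242 upon feeding. The change was 1.10, with 2.57% of genes higher still, and 0.96 under the normexp correction, short of 2-fold. Agpat3, of the same step, had signals of 17763 ± 1776 and 18609.8 ± 1861 and a change of 0.08. It was 0.30 with scaling by the median. Agpat2 minus Agpat3 was 1.03, with an SD of 0.29, and 0.86 under the normexp correction.

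Dgat1 and Dgat2 encode unrelated proteins that catalyse the same final step. Dgat1 had a signal of 1487 ± 149 upon fasting and 664 ± 66.4 upon feeding, a change of -1.07. This was -0.93 with scaling by the median and -0.97 under the normexp correction, so that the 2-fold call rests on the processing. Dgat2 had a signal of 26158 ± 2616 upon fasting and 37329 ± 3733 upon feeding, a change of 0.55, which is not past 2-fold. Although only Dgat1 lies near the threshold, the pair moved apart. Dgat2 minus Dgat1 was 1.62, with an SD of 0.29, and stayed at 1.44 under the normexp correction and 1.68 with either scaling by a percentile.

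Mogat1 and Mogat2 encode the monoacylglycerol acyltransferases. Mogat2, best known from the intestine, had a signal of 78.3 ± 8.69 upon fasting and 211 ± 21.1 upon feeding, and its change of 1.63 was exceeded by 0.875% of genes. This is a dim probe, and under the normexp correction the change was 0.73, or 1.66-fold. Mogat1 had a signal of 322 ± 32.3 upon fasting and 201 ± 20.2 upon feeding, a change of -0.49. Mogat2 minus Mogat1 was 2.12, with an SD of 0.30, and 1.10 under the normexp correction. In the RefSeq order of genes Mogat2 is the direct neighbour of Dgat2, and the pair differed by -1.07 (Dgat2 minus Mogat2), or -0.27 under the normexp correction.

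**Figure D3:**
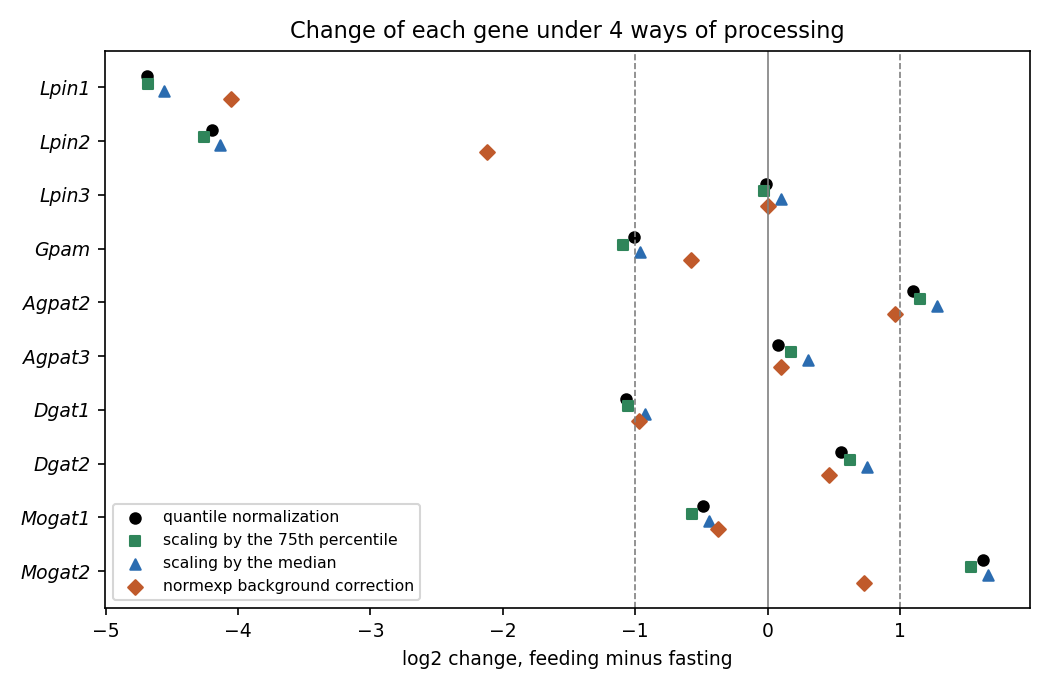
Change of each gene under 4 ways of processing. The x axis is the log2 change, feeding minus fasting, symbols are the ways of processing, and dashed lines mark 2-fold. Lpin1 and Lpin2 lie past 2-fold under all 4, whereas Gpam, Agpat2, Dgat1 and Mogat2 fall short of it under at least 1.

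The other genes of the pathway were taken from 7 lists written from general knowledge, of which 85 of 89 genes were measured and 10 were called. This was 11.8% of the measured genes, beside 7.91% of all genes. The lists were also written with earlier results of these data known, so these shares are no test of the pathway. Of the other glycerolipid acyltransferases, none of the 9 measured was called, and the median was -0.12. The largest change was that of Agpat1 (0.72), and Gpat3 and Gpat4, the acyltransferases of the endoplasmic reticulum for the first step, changed by -0.54 and -0.23. Of the enzymes that supply acyl-CoA, none of 10 was called, with Acsl1, the main acyl-CoA synthetase of liver, at -0.53.

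Of the 7 genes of glycerol 3-phosphate supply and use, 4 were called, 2 in each direction, with a median of 0.35. Gpd1, which makes glycerol 3-phosphate from a glycolytic intermediate, went from a normalised signal of 22026 upon fasting to 44246 upon feeding (1.01), and Gpd2, the mitochondrial enzyme that oxidises glycerol 3-phosphate, from 841 to 1931 (1.20). Gk, the glycerol kinase, went from 4479 to 1649 (-1.44), and Aqp9, the glycerol channel of hepatocytes, from 1088 to 475 (-1.19). Of those not called, Gpd1l changed by 0.66 and the glycerol channel Aqp7 by 0.35, and Aqp3 was not well above background upon fasting and had a bound of 0.

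Phosphatidate and diacylglycerol are also precursors of phospholipids. Among the 19 genes measured of these branches 1 was called, Etnk1, an ethanolamine kinase, at -1.43 (-0.77 under the normexp correction), and the median was -0.03. Of 13 other enzymes that make or use phosphatidate or diacylglycerol, none was called. The largest change was that of the diacylglycerol kinase Dgkh (-0.77). The lipid phosphate phosphatases, which also act on phosphatidate but outside this pathway, changed by -0.49 (Plpp1), 0.31 (Plpp2), 0.05 (Plpp3) and 0.39 (Plpp5).

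Of 15 regulators and nuclear partners of the lipins, 3 were called. Ppargc1a, which encodes PGC-1α, had a normalised signal of 1400.2 upon fasting and 146 upon feeding (-3.26), and its other probe changed by -3.48. Ppargc1b went from 124 to 40.3 (-1.62, and -0.65 under the normexp correction). Srebf1, which encodes SREBP-1, went from 191 to 1703 (3.15). Ppara, the partner of lipin 1 and PGC-1α, changed by -0.78, and the genes of the phosphatase complex that activates lipins, Ctdnep1 and Cnep1r1, by 0.06 and -0.23. The median of these genes was -0.23.

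On the side of triglyceride hydrolysis 2 of 12 genes were called. Pnpla3 went from 24.6 to 196 (2.99, and 1.14 under the normexp correction) and G0s2, an inhibitor of the main triglyceride lipase, from 674 to 2057 (1.61). The lipase itself, Pnpla2, changed by -0.46, and the median was -0.26.

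Genes known to respond to food in liver were set beside these changes, with Ppargc1a, Srebf1 and Pnpla3 also in the lists above. Of 10 measured genes known to be induced by fasting 8 were called, with 8 of the 8 lower upon feeding, a median of -1.71, and the largest decreases in Igfbp1 (-4.33), Angptl4 (-3.29) and Ppargc1a (-3.26). Of 11 genes known to be induced by feeding 8 were called and higher, with a median of 1.98 and the largest increases in Angptl8 (4.72), Srebf1 (3.15) and Fasn (3.02). The lowest value of the latter list was that of Scd1, the stearoyl-CoA desaturase, at -0.83.

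**Figure D4:**
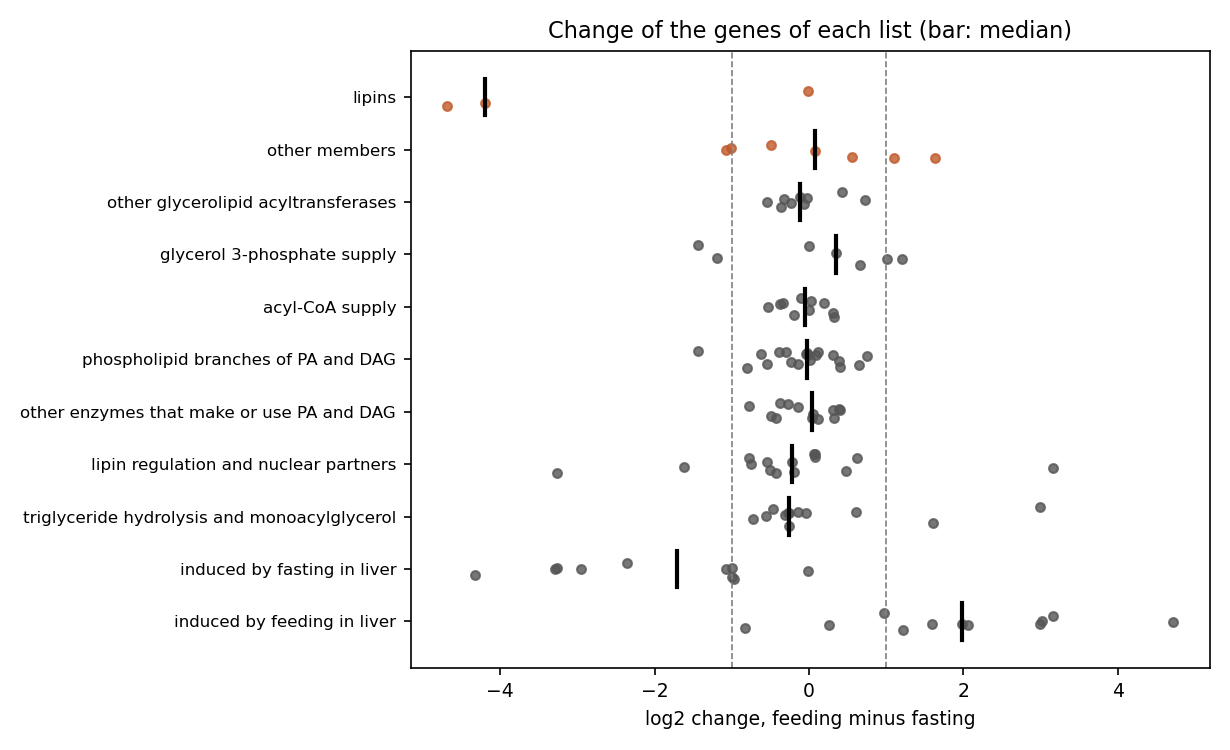
Change of the lipins, the other members and the genes of each list. The x axis is the log2 change, feeding minus fasting, each point is a gene, black bars are medians and dashed lines mark 2-fold. PA is phosphatidate and DAG diacylglycerol. The lipin median (-4.20) lies beyond every other median, and the median of the other members is 0.08.

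The fasting array had 63.1% of its transcript spots well above background and the feeding array 72.3%, with a median local background of 30 and 22. No spot was saturated. All 8 hepatocyte markers were well above background on both arrays, with a summed signal that changed by -0.17. The summed markers of Kupffer cells and leukocytes changed by -0.68, those of cholangiocytes by -0.44, of endothelial cells by -0.40 and of enterocytes by -0.22. Those of stellate cells changed by -0.21, of pancreas by -0.14, of red blood cells by -0.06, of skeletal muscle by 0.27 and of adipocytes by 0.70. A sum follows its brightest marker, and the normalised signals of enterocyte markers upon fasting ranged from 2.13 to 12347. The median change of the single markers was -0.48 for Kupffer cells and leukocytes, -0.12 for cholangiocytes, -0.42 for endothelial cells and 0.02 for enterocytes. It was -0.44 for stellate cells, -0.25 for pancreas, -0.05 for red blood cells, 0.07 for skeletal muscle, 0.41 for adipocytes and -0.07 for hepatocytes. Not above background on either array were Adipoq and Lep of adipocytes, Ckm, Myh4 and Myh1 of muscle, Lct and Cdx2 of enterocytes and Pnlip of pancreas. Of the 6 muscle markers, 0 were well above background upon fasting. The adipocyte sum was 7.68 on the log2 scale upon fasting and 8.38 upon feeding, against 19.6 and 19.4 for hepatocytes. The part of other cell types in the changes of the lipins was not tested, and fewer cells of a type cannot be told from less RNA per cell in whole liver.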

How the data were processed

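Liver RNA was labelled with Cy3 and hybridised to the Whole Mouse Genome array, and the authors deposited the intensity of each spot as given by Agilent Feature Extraction 11.0.1.1. The processed intensity is background-subtracted and not normalized between the arrays, so quantile normalization, which the authors ran after this stage, was repeated here. The deposited value table equals the local background of 44397 of 44397 spots on each array (within a relative 1e-06) and was not used. Control spots (1377 per array) and outlier spots (123 upon fasting, 98 upon feeding) were left out, and log2 intensities were averaged per probe. Of 39402 probes, 27218 (69.1%) were matched through transcript identifiers to the table of GRCm38.p6. The array design names an older build, so no probe or gene coordinates are given, and the promoter positions are those of the RefSeq table on its own build.

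Each gene was read from the probe brightest on average over both arrays, and tested if that probe passed the background flag on either array. Where it passed on 1 array only (1719 genes dim upon fasting, 112 dim upon feeding), the change is a lower bound against the higher of its own signal and the lowest signal well above background, set to 0 where the bound had the opposite sign. With 1 array per group no test was run, and the number of arrays limits the precision. Alternatives were scaling each array by its 75th percentile or its median, normexp (limma 3.58.1, R 4.3.3, offset 50, on the median signal), the mean of a gene's probes, other filters on dim probes, no bound, and thresholds of 1.5-fold and 3-fold. The code was tested on simulated data. The members, lists and motifs were chosen with earlier results of these data known. Named were the 10 members, of each pathway list the called genes or else the largest change, the 3 largest of each list of known responders and the 3 neighbours of Lpin1 on either side. Other genes were named after their values were seen, namely the phosphatases, Gpat3, Gpat4, Gpd1l, Aqp3, Aqp7, Ppara, Ctdnep1, Cnep1r1, Pnpla2 and Scd1. Cell type markers were named where they were above background on neither array.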

Additional observations from a re-analysis of the deposited data

How the results depend on the processing

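No paired analysis was possible because each group has 1 array. Of the 10 members, 6 were past 2-fold; the count was 2 under the normexp correction (Lpin1 and Lpin2), 4 with scaling by the median and 3 at a 3-fold threshold (Lpin1, Lpin2 and Mogat2), and 6 under each other setting tried. Under the normexp correction the lipin median was -2.12 and its difference from the other members -2.23. This correction placed the dimmest probe at a signal of 219.8 upon fasting and 50.3 upon feeding, which compresses the changes of dim genes. With scaling by the median, the median of the other members was 0.30. Of the 7 pathway lists, 22 genes were past 1.5-fold and 5 past 3-fold, in place of 10. Over all genes, 1293 of 16346 were past 2-fold, 527 of 16338 under the normexp correction and 1366 of 16348 with scaling by the median. Scaling by the 75th percentile gave 1312 of 16348, and the mean of a gene's probes 1234 of 16354. The count was 1098 of 14515 for probes well above background on both arrays and 2023 of 20652 with no filter on dim probes. It was 1636 of 16346 without lower bounds, 3451 of 16346 at 1.5-fold and 469 of 16346 at 3-fold. For single members, 60 of 70 recomputed changes lay within the spread of replicate spots and 10 moved beyond it, with 0 reversals among called members. All 10 moves came from scaling by a percentile or from the normexp correction. The filters on dim probes and the lack of a bound could move no member, because all 10 were well above background on both arrays. The mean of a gene's probes could move only Lpin1, the only member with more than 1 probe. The share of 60 of 70 is therefore no measure of stability. Naming probes by a gene name column was not run, since the array files used here have none. Depth is set by signal over background, which is lowest for Lpin2 upon feeding, the dimmer Lpin1 probe and Mogat2.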
